A study of Mus musculus with 6 samples.

Results

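The regions described here are stretches of open chromatin assigned to genes of the Fox, Sox, Tbx, Lhx, sine oculis (Six4 and its relatives), Pax, Gata, Dlx and Irx families of developmental transcription factors. The assay was ATAC-seq, where the Tn5 transposase cuts accessible DNA and tags the ends. A region was included when the deposited table assigned it to a protein-coding gene whose symbol belonged to one of the 9 families, at any distance from the transcription start site (TSS). This gave 91 regions of 59 genes, of 63430 regions in all. RefSeq names 117 protein-coding genes of these families, of which 59 had at least 1 region among those used here. By family the regions numbered 41 for Fox, 12 for Sox, 7 for Tbx, 6 for Lhx, 6 for sine oculis, 3 for Pax, 4 for Gata, 7 for Dlx and 5 for Irx. The cells were NIH/3T3, a fibroblast line from mouse embryos, and all of them carried a knock-in of CRISPR-Cas13d, an enzyme that cuts RNA. One group was transfected with a guide RNA specific for Actg1, the cytoplasmic gamma-actin gene, and the other with a guide specific for GFP as control, with 3 libraries per group and 25000 cells per library. RNA was not measured in these libraries, so the level of Actg1 mRNA does not check the labels here. Whether the knock-in line was a single clone, and how long after transfection the cells were taken, is not given in the sources used here.

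These families encode DNA-binding proteins that set regional and cell identity in the embryo. Fox proteins carry the forkhead domain, Sox proteins the HMG box and Tbx proteins the T-box, while Gata proteins bind through zinc fingers. Lhx, sine oculis, Pax, Dlx and Irx proteins carry homeodomains, in Pax proteins beside a paired domain and not in every member. Fibroblasts keep some of these genes active as a record of their position in the body, and others stay silent under Polycomb repression. Promoters of such genes commonly lie in CpG islands, which are often accessible even where the gene is little transcribed, so open chromatin at these genes is not a measure of their mRNA.

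The promoters printed here are those of the 4 called genes for which the RefSeq promoter table (GRCm38.p6, the build that mm10 names) held a window under the called region. Each runs 5′ to 3′ on the gene's strand from 250 bases before the start to 50 after it, in lower case, and capitals mark each CG dinucleotide. The windows of Irx2 (chr13:72628570-72628869, plus strand), Sox11 (chr12:27342669-27342968, minus strand) and Irx3 (chr8:91801605-91801904, minus strand) lay under regions that were lower with the Actg1 guide, and that of Foxf2 (chr13:31625566-31625865, plus strand) under one that was higher.
Irx2: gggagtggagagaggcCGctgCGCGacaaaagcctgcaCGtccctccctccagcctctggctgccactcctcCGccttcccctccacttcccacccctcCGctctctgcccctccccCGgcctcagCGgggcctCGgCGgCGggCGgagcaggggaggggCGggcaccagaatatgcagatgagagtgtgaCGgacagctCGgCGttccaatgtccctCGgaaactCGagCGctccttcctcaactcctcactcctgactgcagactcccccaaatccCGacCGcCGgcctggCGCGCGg
Sox11: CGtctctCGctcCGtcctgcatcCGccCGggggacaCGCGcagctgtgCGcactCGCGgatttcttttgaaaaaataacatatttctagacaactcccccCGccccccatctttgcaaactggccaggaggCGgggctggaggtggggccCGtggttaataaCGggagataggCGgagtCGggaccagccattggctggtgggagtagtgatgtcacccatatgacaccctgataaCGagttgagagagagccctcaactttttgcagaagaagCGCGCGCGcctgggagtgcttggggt
Irx3: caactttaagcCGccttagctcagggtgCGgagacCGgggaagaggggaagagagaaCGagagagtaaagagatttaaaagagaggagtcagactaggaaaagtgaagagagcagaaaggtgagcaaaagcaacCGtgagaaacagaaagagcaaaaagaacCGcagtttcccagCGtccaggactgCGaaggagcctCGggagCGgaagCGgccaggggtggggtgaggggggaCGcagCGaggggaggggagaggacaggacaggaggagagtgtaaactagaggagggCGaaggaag
Foxf2: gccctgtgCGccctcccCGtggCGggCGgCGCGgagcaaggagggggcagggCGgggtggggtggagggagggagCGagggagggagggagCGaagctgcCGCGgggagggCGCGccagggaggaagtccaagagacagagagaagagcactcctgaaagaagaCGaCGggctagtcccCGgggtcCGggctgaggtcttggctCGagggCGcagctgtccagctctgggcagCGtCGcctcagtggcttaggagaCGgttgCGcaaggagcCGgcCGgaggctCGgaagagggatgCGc

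The CG dinucleotide occurred 25 times in the Irx2 window, 21 times in that of Sox11, 14 times in that of Irx3 and 27 times in that of Foxf2. Over all 24 windows of member genes that lay under a region the median was 26.5 (range 12 to 59), and over all 32851 RefSeq promoter windows of this length it was 7. Each printed window held more CG than that median, those of the lower regions and of the higher one alike. Short letter strings bound by known factors were searched on both strands. The AP-1 string TGANTCA was present in 2 of the 24 windows (8.33%, against 7.81% of all windows) and the TEAD string GGAATG in 5 (20.8%, against 14.7%). The forkhead string TGTTTAC, the Sox string ACAATG and the Gata string AGATAA were in 0 of the 24, against 3.65%, 12.6% and 11.2% of all windows. The median share of G and C bases was 66.8% in the 24 windows and 52.7% in all windows. The 24 windows were kept for lying under an open region, while the whole set was taken whether or not a region lay there. The part of either difference in these counts was not tested. Of the 4 printed windows, 0 held any of the 5 strings.

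The 6 libraries had total normalised signals between 7673745 and 7831438, and an estimated 5675571 to 9525335 reads in regions. The first and the second GFP guide replicate differed by less than sampling noise. They count as 1 sample, so that group had 2 samples and its SD is between their mean and replicate 3. All 12 fibroblast marker genes had a region, with a summed signal of 5818 to 5887 in the Actg1 guide libraries and 5950 to 6150 in the GFP guide libraries. Within that sum 7 of their 28 regions were called higher and 8 lower (limma), from a log2 fold change of -1.30 at S100a4 to 0.77 inside Prrx1. These calls were 53.6% of the 28, against 41.3% of all tested regions and 33.8% of those of protein-coding genes. Of the markers of other cells, 0 of 4 endothelial genes had a region, nor did Epcam and Cdh1 of epithelium, Spi1 and Cd3e of blood or Myod1 and Myog of muscle. The 3 of 6 epithelial genes with regions summed to 182 to 235 with the Actg1 guide and 257 to 288 with the GFP guide, and the 2 of 5 blood genes to 223 to 252 with the Actg1 guide and 183 to 200 with the GFP guide. The 3 of 4 neural genes summed to 473 to 492 with the Actg1 guide and 512 to 558 with the GFP guide, and the 1 of 4 muscle genes to 56 to 67 with the Actg1 guide and 58 to 71 with the GFP guide. The part of these markers in the results below was not tested.

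The comparison asked which of these regions differ in accessibility between the Actg1 guide and GFP guide cells. Of 89 regions tested, with the Actg1 guide 9 were higher and 17 lower, and 63 were not called (limma on log2 of the signal + 1, Benjamini-Hochberg adjusted p under 0.05 over all 61327 tested regions). The 26 calls are 29.2% of the members tested. Of all tested regions 41.3% were called, and of the regions assigned to protein-coding genes 33.8%, the background against which the members' share is read. Of all tested regions 20.6% were called higher and 20.7% lower, and of those of protein-coding genes 16.3% higher and 17.5% lower. The 2 members not tested had low signal, a Lhx3 region with 6 to 11 in the Actg1 guide libraries and 3 to 8 in the GFP guide libraries, and a Tbx2 region with 7 to 10 in the Actg1 guide libraries and 7 to 13 in the GFP guide libraries. The libraries of the groups did not overlap in 39 of the 89 regions (43.8%), against 50.8% of all tested regions and 44.6% of those of protein-coding genes. The median log2 fold change of the members was -0.06, with quartiles of -0.19 and 0.13. For all tested regions it was -0.01, with quartiles of -0.30 and 0.32. In a bulk profile, fewer cells with an open region and a less open region in each cell cannot be told apart.

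**Figure D1:**
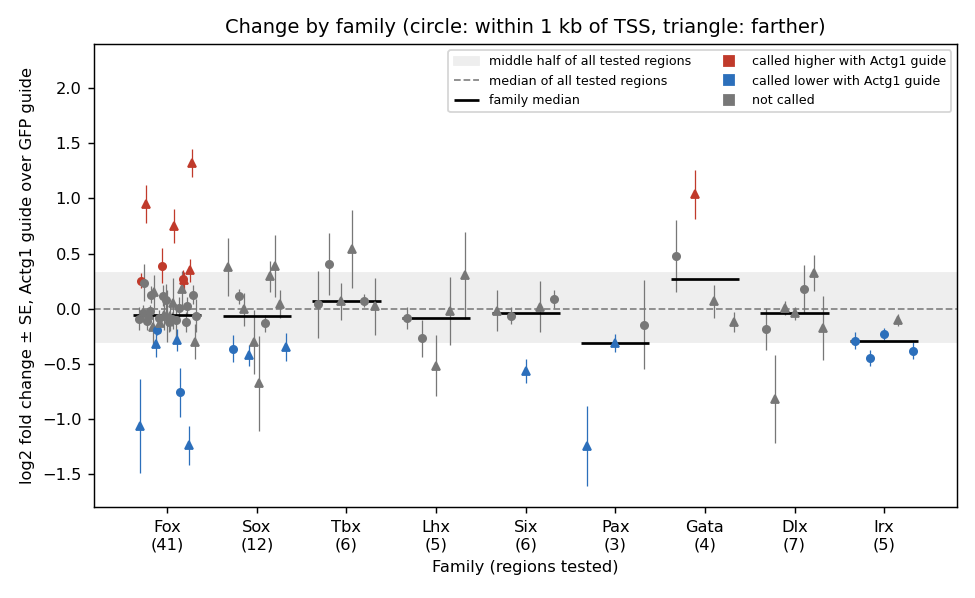
Log2 fold change with its standard error (Actg1 guide over GFP guide) of 88 of the 89 tested member regions, by family, with the number of regions tested in brackets, with circles within 1 kb of the TSS and triangles farther away, black lines at family medians and a grey band between the quartiles of all tested regions. All 9 red points (called higher) lie in the Fox and Gata families, and the 5 Irx regions lie below 0, 4 of them called.

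Leaving out a library changed these counts. Without GFP guide replicate 3, which leaves 1 GFP guide sample, 4 members were higher (Foxc1, Foxj1, Foxm1 at 3618 bp and Gata4) and 3 lower (Foxj2, Foxn2 and Irx2), while the share called among all regions fell to 20.9%. Of the 19 calls that ended, 15 kept at least 80% of their log2 fold change. With any other library left out, 21 to 27 members were called. Regions within 1 kb of the TSS, here called promoters, made up 41 of the members tested, and 3 of them were higher and 8 lower (26.8% called, against 31.2% of promoter regions of protein-coding genes). Without GFP guide replicate 3 the promoter count fell to 2. Of the 48 regions farther away, 6 were higher and 9 lower, against a background of 38.8% of such regions of protein-coding genes.

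Changes of at least 2-fold were called in 5 members, all among the 48 tested regions away from promoters. They were the Foxm1 region at 3618 bp and the Gata4 region, both higher, and regions of Foxj2, Foxb2 and Pax8, all lower. The Foxb2 region and this weak Pax8 region passed the signal filter only through the GFP guide libraries, where they were higher. The filter favoured large changes among such weak regions, in the background as in the members. With a signal of at least 30 in 3 libraries required, the Foxb2 region and this Pax8 region were not tested. Changes of at least 2-fold were called in 12.2% of all tested regions and in 9.05% of the regions of protein-coding genes outside promoters. At promoters of protein-coding genes they were called in only 99 of 9954 tested regions. Their absence from the member promoters is therefore not particular to these families. The largest change at a promoter was that of Foxf1, a log2 fold change of -0.76. The called members spanned weak and strong regions, with mean signals from 13.5 at Foxb2 to 1177 at Foxn2.

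**Figure D2:**
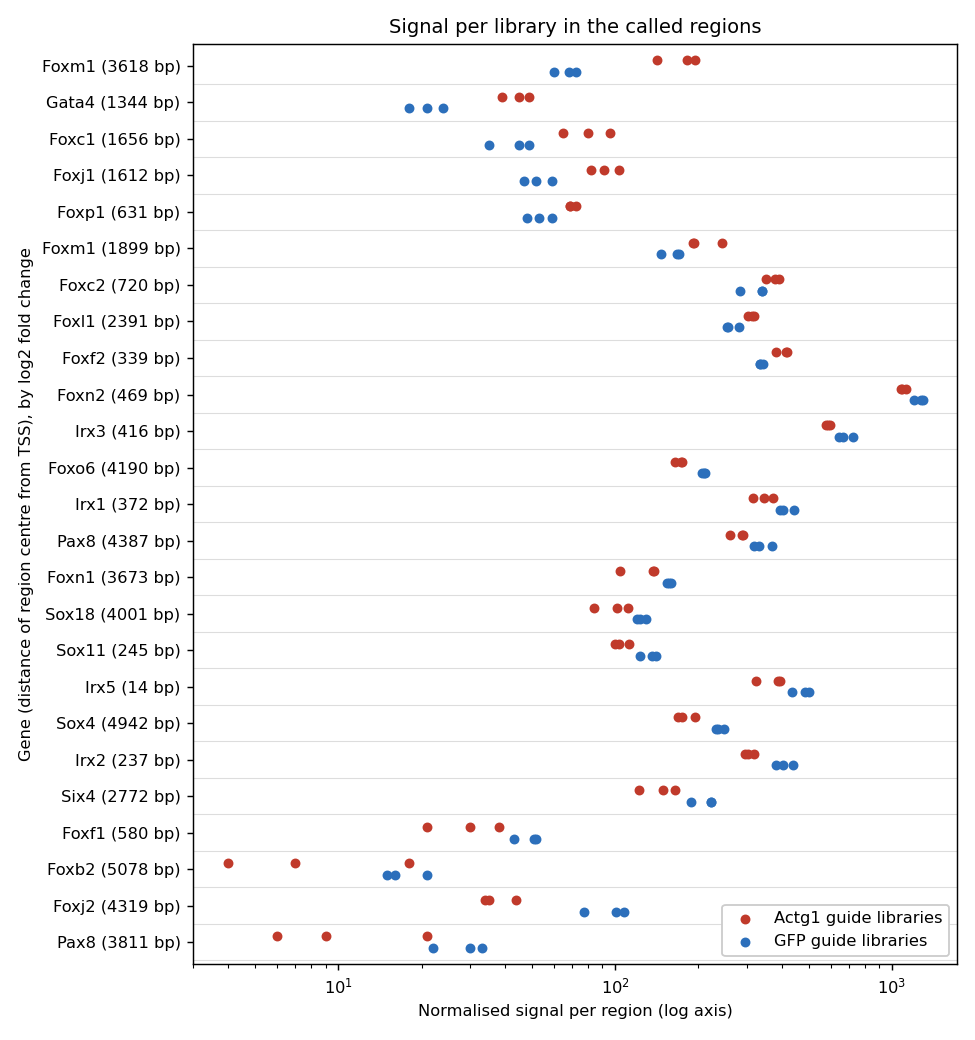
Normalised signal of each of the 6 libraries (log axis) in 25 of the 26 called member regions, ordered by log2 fold change, with the distance of the region centre from the TSS, Actg1 guide libraries in red and GFP guide libraries in blue. The libraries of the groups are separate in 24 regions and overlap at Foxb2.

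The Irx promoters were lower with the Actg1 guide. Irx genes encode homeodomain proteins of the TALE class that pattern heart, limb and nervous system, and they lie in paralogous clusters, here with Irx1 and Irx2 on chromosome 13 and Irx3 and Irx5 on chromosome 8. All 4 promoter regions were called lower, against 18.3% of promoter regions of protein-coding genes. Irx2 (237 bp from its TSS, chr13:72628048-72629117) had signals of 302, 295 and 317 in the Actg1 guide libraries, against 381, 404 and 440 in the GFP guide libraries. All Actg1 guide libraries lay below the lowest GFP guide library. Its log2 fold change was -0.45 (SE 0.0747, adjusted p by limma = 4.84e-06). Irx5 (14 bp, chr8:92357209-92358013) had 387, 322 and 394 with the Actg1 guide against 436, 500 and 486 with the GFP guide, a log2 fold change of -0.38 (SE 0.0742, adjusted p by limma = 5.58e-05). The groups were again separate, with Actg1 guide replicate 2 the lowest.

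Irx1 (372 bp, chr13:71962603-71964098), on the same chromosome as Irx2, had 373, 346 and 315 in the Actg1 guide libraries and 403, 394 and 444 in the GFP guide libraries. The groups did not overlap, although the gap between them was narrower than the spread within either, and the log2 fold change was -0.29 (SE 0.0752, adjusted p by limma = 0.00173). Irx3 (416 bp, chr8:91800997-91802304), the strongest of the Irx promoters, had 596, 576 and 589 with the Actg1 guide against 668, 646 and 721 with the GFP guide. These values did not overlap either, and the log2 fold change was -0.23 (SE 0.0571, adjusted p by limma = 0.00114). A further Irx5 region 1452 bp upstream had 691, 665 and 649 with the Actg1 guide against 704, 721 and 718 with the GFP guide, and at a log2 fold change of -0.10 it was not called (adjusted p by limma = 0.143). The 5 regions summed to 2349, 2204 and 2264 with the Actg1 guide and to 2592, 2665 and 2809 with the GFP guide. Without GFP guide replicate 3 Irx2 remained called and the other 3 did not, the log2 fold changes of Irx5, Irx1 and Irx3 being -0.35, -0.21 and -0.16 (adjusted p by limma = 0.0549, 0.179 and 0.111). Under the other 13 alternative settings all 4 calls were kept.

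Of 41 Fox regions, 8 were higher and 6 lower, and the family's median log2 fold change was -0.06. The share called, 34.1%, was near the 33.8% of regions of protein-coding genes. The share called higher was 19.5%, against 16.3% of regions of protein-coding genes and 20.6% of all regions. The share called lower was 14.6%, against 17.5% and 20.7%. The highest rise was inside Foxm1, the forkhead factor that drives genes of the G2 and M phases of the cell cycle. The region 3618 bp past its TSS (chr6:128366380-128366790) had 182, 195 and 142 in the Actg1 guide libraries, against 68, 60 and 72 in the GFP guide libraries. The lowest Actg1 guide library was far above the highest GFP guide library, and the log2 fold change was 1.32 (SE 0.128, adjusted p by limma = 3.38e-11). A region of Foxm1 closer to the TSS, at 1899 bp, had 191, 193 and 243 with the Actg1 guide against 170, 146 and 168 with the GFP guide, a log2 fold change of 0.35 (adjusted p by limma = 0.00554). That call ended without GFP guide replicate 3 (adjusted p by limma = 0.0906) and without Actg1 guide replicate 3 (0.0694). The TSS of Foxm1 itself lay in a region that the table assigns to the neighbouring gene Rhno1, centred 59.5 bp from the Foxm1 TSS. This region had 377, 439 and 385 with the Actg1 guide against 441, 409 and 419 with the GFP guide and was not called (log2 fold change -0.08, adjusted p by limma = 0.393).

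The other higher Fox regions include those of Foxc1, Foxc2, Foxf2 and Foxl1, while Foxf1 was lower. Foxc1 and Foxc2 act in the development of vessels, somites and the eye, and Foxf1, Foxf2 and Foxl1 act in the mesenchyme around gut and other organs. The Foxc1 region at 1656 bp (chr13:31808173-31808405) had 96, 65 and 80 in the Actg1 guide libraries and 45, 49 and 35 in the GFP guide libraries, without overlap. Its log2 fold change was 0.95 (SE 0.175, adjusted p by limma = 2.28e-05). The Foxc2 promoter (720 bp, chr8:121116012-121117770) had 378, 392 and 351 with the Actg1 guide against 340, 339 and 282 with the GFP guide. Its groups were separated by a narrow gap, and its log2 fold change of 0.27 (SE 0.0782, adjusted p by limma = 0.00482) went down to 0.14 without GFP guide replicate 3, the library with the lowest value (adjusted p = 0.327), and its call also ended without Actg1 guide replicate 2 (0.057). Foxf2 (339 bp, chr13:31625125-31627184), whose promoter sequence stands above, had 382, 415 and 416 with the Actg1 guide against 334, 335 and 342 with the GFP guide, a log2 fold change of 0.26 (SE 0.0708, adjusted p by limma = 0.00322). Foxl1 (2391 bp upstream, chr8:121124950-121126147) had 312, 318 and 303 with the Actg1 guide against 280, 255 and 253 with the GFP guide, also a log2 fold change of 0.26 (adjusted p by limma = 0.00771). Neither call remained without GFP guide replicate 3, where the log2 fold changes were 0.27 and 0.22 (adjusted p by limma = 0.0533 and 0.124).

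Foxf1 was lower, at low signal. Its promoter region (580 bp upstream, chr8:121083617-121083994) had 38, 30 and 21 in the Actg1 guide libraries and 43, 51 and 52 in the GFP guide libraries. The groups did not overlap, and the log2 fold change was -0.76 (SE 0.224, adjusted p by limma = 0.00567). The call ended without GFP guide replicate 3 (adjusted p = 0.172) or Actg1 guide replicate 3 (0.0505). The other rises were in Foxj1, the master factor of motile cilia, and Foxp1, a repressor that acts in heart, lung and lymphocytes. The Foxj1 region at 1612 bp (chr11:116333651-116333922) had 82, 103 and 91 with the Actg1 guide against 52, 47 and 59 with the GFP guide, all Actg1 guide libraries being higher, with a log2 fold change of 0.75 (SE 0.152, adjusted p by limma = 9.19e-05). The Foxp1 region at 631 bp had 69, 72 and 69 with the Actg1 guide against 48, 59 and 53 with the GFP guide, a log2 fold change of 0.39 (adjusted p by limma = 0.0458) whose call ended when any library but GFP guide replicate 2 was left out (adjusted p 0.0588 to 0.166) and after cyclic loess scaling (0.0719).

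Of the 6 lower Fox regions the strongest change was inside Foxj2, a broadly expressed forkhead gene. The region at 4319 bp (chr6:122824055-122824411) had 34, 35 and 44 in the Actg1 guide libraries and 108, 101 and 77 in the GFP guide libraries. The groups did not overlap, and the log2 fold change was -1.24 (SE 0.181, adjusted p by limma = 4.22e-07). Foxn2 had the strongest region of all members, at its promoter (469 bp, chr17:88440290-88442069). It had 1081, 1091 and 1128 with the Actg1 guide against 1204, 1291 and 1269 with the GFP guide, a fall of 0.19 on the log2 scale, which held with each library left out (SE 0.0427, adjusted p by limma = 0.000281). Foxo6, a FoxO factor of the brain and liver, had 175, 173 and 164 with the Actg1 guide against 211, 209 and 206 with the GFP guide at 4190 bp (log2 fold change -0.28, adjusted p by limma = 0.0155). Foxn1, the factor of thymic and hair follicle epithelium, had 104, 137 and 138 with the Actg1 guide against 154, 159 and 156 with the GFP guide (log2 fold change -0.32, adjusted p by limma = 0.0293). Both calls ended without GFP guide replicate 3 (adjusted p = 0.0985 and 0.233), and that of Foxn1 also without Actg1 guide replicate 1 (0.207). The Foxb2 region, past the end of the gene, had 7, 4 and 18 with the Actg1 guide against 16, 15 and 21 with the GFP guide. Its groups overlapped, and its call (log2 fold change -1.06, adjusted p by limma = 0.0406) ended without GFP guide replicate 1 or 3 or Actg1 guide replicate 1 or 2 (adjusted p 0.0571 to 0.421).

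Among the 27 Fox regions not called were promoters of genes for FoxO proteins, which insulin signalling keeps out of the nucleus. Others with strong signal were also not called. The Foxo1 promoter had 397, 379 and 336 in the Actg1 guide libraries and 352, 326 and 338 in the GFP guide libraries (log2 fold change 0.13, SE 0.0751). Foxo3 had its stronger region 1211 bp upstream, at 672, 644 and 709 with the Actg1 guide against 656, 737 and 706 with the GFP guide (log2 fold change -0.06, SE 0.0549). For Foxp4 the values were 758, 752 and 761 with the Actg1 guide against 780, 789 and 748 with the GFP guide (log2 fold change -0.02, SE 0.0512). Their groups overlapped, although Foxo1 was called higher without Actg1 guide replicate 3 (log2 fold change 0.20, adjusted p by limma = 0.0434). Foxd1 and Foxd2, factors of kidney stroma and neural crest derivatives, had log2 fold changes of -0.08 and -0.09 (SE 0.0667 and 0.0666). Foxk1 and Foxk2, regulators of metabolism and autophagy genes, had 0.13 and -0.12. The endoderm pioneer factor Foxa1 had a single region, at 70, 82 and 79 with the Actg1 guide against 75, 71 and 65 with the GFP guide, which was not called (log2 fold change 0.16).

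Of 6 sine oculis regions 2 were lower and 0 higher, and of 3 Pax regions 2, both of Pax8, were lower and 0 higher. The sine oculis share called, 33.3%, was near the 33.8% of regions of protein-coding genes, and so few calls do not give either family a direction. Sine oculis proteins work with Eya and Pax partners in the precursors of muscle, kidney and sense organs. Inside Six4, the region at 2772 bp (chr12:73110358-73111010) had 122, 149 and 165 in the Actg1 guide libraries, all below the 188, 222 and 222 in the GFP guide libraries (log2 fold change -0.56, SE 0.109, adjusted p by limma = 5.4e-05). The Six4 promoter had 309, 281 and 309 with the Actg1 guide against 291, 296 and 269 with the GFP guide, was the strongest sine oculis region and was not called (log2 fold change 0.09, adjusted p by limma = 0.384). The regions of Six5 had log2 fold changes of -0.06 and -0.02. Without GFP guide replicate 3 the Six4 call ended, at a log2 fold change of -0.50 (adjusted p by limma = 0.0568).

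Pax8, a paired-domain factor of thyroid and kidney, had neighbouring regions upstream of its TSS that were both lower. The stronger, at 4387 bp (chr2:24479739-24480233), had 287, 260 and 289 in the Actg1 guide libraries and 331, 317 and 370 in the GFP guide libraries, a log2 fold change of -0.31 (SE 0.0804, adjusted p by limma = 0.00153). The weaker, at 3811 bp (chr2:24479283-24479536), had 6, 9 and 21 with the Actg1 guide against 33, 30 and 22 with the GFP guide. Its groups did not overlap, but Actg1 guide replicate 3 lay next to GFP guide replicate 3, and its log2 fold change was -1.24 (SE 0.364, adjusted p by limma = 0.00525). Both calls ended without GFP guide replicate 3 (adjusted p = 0.157 for the stronger and 0.0995 for the weaker), and that of the weaker region also without Actg1 guide replicate 1 or 2 (0.0848 and 0.0601). The only other Pax region, at Pax2, had signals of 7 to 16 with the Actg1 guide and 7 to 15 with the GFP guide.

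Of 12 Sox regions 0 were higher and 3 lower, 25% called, against 33.8% of regions of protein-coding genes called either way and 17.5% called lower. The SoxC genes Sox4 and Sox11 act in progenitors of neurons and mesenchyme, and Sox18, of the SoxF group, acts in vessels and hair follicles. A region 4942 bp upstream of Sox4 (chr13:28958251-28959059) had 194, 174 and 169 in the Actg1 guide libraries and 231, 235 and 247 in the GFP guide libraries. The groups were well apart, and the log2 fold change was -0.42 (SE 0.0948, adjusted p by limma = 0.000349). At the Sox4 promoter, the strongest Sox region, the values were 438, 396 and 429 with the Actg1 guide against 431, 411 and 360 with the GFP guide, which overlapped (log2 fold change 0.11, adjusted p by limma = 0.221). This value was -0.0013 without GFP guide replicate 3, of the other sign. The Sox11 promoter (245 bp, chr12:27342398-27343240), printed above, had 103, 100 and 112 with the Actg1 guide against 136, 123 and 141 with the GFP guide (log2 fold change -0.36, SE 0.12, adjusted p by limma = 0.0135). The Sox18 region 4001 bp upstream (chr2:181675520-181675761) had 102, 84 and 111 with the Actg1 guide against 120, 123 and 129 with the GFP guide (log2 fold change -0.35, adjusted p by limma = 0.0287). Without GFP guide replicate 3 none of the 3 Sox calls remained (adjusted p by limma = 0.0532 for Sox4, 0.18 for Sox11 and 0.267 for Sox18), and Sox18 was also lost without Actg1 guide replicate 1 or 2 (0.065 and 0.142). Sox9, the master factor of cartilage, had 345, 419 and 331 with the Actg1 guide against 370, 425 and 399 with the GFP guide at its promoter, and the groups overlapped (log2 fold change -0.13, adjusted p by limma = 0.172). Without Actg1 guide replicate 2 it was called lower (log2 fold change -0.24, adjusted p by limma = 0.016), and without GFP guide replicate 2 a Sox6 region at 4799 bp was called higher (0.38, adjusted p by limma = 0.0293, against 0.0893 with all libraries).

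Gata4, a zinc finger factor of heart and endoderm, gave the single higher call outside the Fox family. Its region 1344 bp upstream (chr14:63272910-63273162) had 45, 49 and 39 in the Actg1 guide libraries and 24, 18 and 21 in the GFP guide libraries. Each Actg1 guide library was above each GFP guide library, and the log2 fold change was 1.04 (SE 0.219, adjusted p by limma = 0.00017). The mean of GFP guide replicates 1 and 2 equalled replicate 3 here, so the SD of 0 of that group does not show the spread of its 3 libraries. The weak Gata4 promoter region had 15, 16 and 26 with the Actg1 guide against 14, 14 and 12 with the GFP guide and was not called (log2 fold change 0.48, adjusted p by limma = 0.246). For Gata2, a blood and endothelial factor, the regions had log2 fold changes of 0.07 and -0.12 (adjusted p by limma = 0.762 and 0.323).

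Tbx, Lhx and Dlx regions gave 0 calls (limma, of 6, 5 and 7 tested), and at an unadjusted p under 0.05 the counts were 0, 0 and 1. Of all tested regions 41.3% were called, and of those of protein-coding genes 33.8%. All 6 tested Tbx regions had log2 fold changes above 0. The Tbx regions summed to 730, 692 and 694 with the Actg1 guide against 648, 668 and 665 with the GFP guide, without overlap and mostly from Tbx18. The sums of the Lhx and of the Dlx regions overlapped between the groups. Tbx18, of the embryonic epicardium and sclerotome, had the strongest region of its family, with 578, 511 and 552 in the Actg1 guide libraries and 510, 516 and 525 in the GFP guide libraries (log2 fold change 0.07, SE 0.0619). Dlx1 and Dlx2, which act in forebrain interneurons and the jaw, had regions of similar strength. The Dlx1 region had 501, 479 and 520 with the Actg1 guide against 485, 510 and 497 with the GFP guide (log2 fold change 0.01, SE 0.0623). The Dlx2 region past the end of that gene had 570, 544 and 570 with the Actg1 guide against 586, 581 and 571 with the GFP guide (log2 fold change -0.04, SE 0.0583). For Lhx6, a LIM-homeodomain factor of interneurons, the values were 165, 181 and 171 with the Actg1 guide against 154, 191 and 193 with the GFP guide (log2 fold change -0.08, SE 0.1). The regions of Tbx4 and Lhx1 were weak, with mean signals of 12.5 to 64.8 for Tbx4 and 17.8 to 21.5 for Lhx1. Without GFP guide replicate 1 a Dlx5 region at 2947 bp was called lower (log2 fold change -1.04, adjusted p by limma = 0.0418). With all libraries it had 8, 11 and 6 in the Actg1 guide libraries against 11, 24 and 13 in the GFP guide libraries (log2 fold change -0.82, adjusted p by limma = 0.0969).

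Of 59 genes, 24 had a called region (40.7%, against 39.1% of all protein-coding genes with a region), 8 of them higher and 16 lower, and 0 had regions called in both directions. In 11 genes a called region stood beside one that was not called, and the ratio of the called region to the strongest uncalled one was compared between groups. This comparison was added after the values were seen and, since the called regions were picked on the same contrast, it is given as a description with no test. The ratio was 0.125, 0.138 and 0.15 for Foxj2 in the Actg1 guide libraries, against 0.427, 0.375 and 0.273 in the GFP guide libraries (difference in log2 ratio -1.27). For Foxc1 it was 0.234, 0.162 and 0.206 with the Actg1 guide against 0.106, 0.117 and 0.0905 with the GFP guide (0.99), and for Foxj1 1.19, 1.25 and 1.23 with the Actg1 guide against 0.68, 0.608 and 0.714 with the GFP guide (0.85). The Foxj1 region inside the gene thus outranked the promoter region with the Actg1 guide and stood below it with the GFP guide. For Six4 the ratio was 0.397, 0.532 and 0.535 with the Actg1 guide against 0.647, 0.751 and 0.826 with the GFP guide (-0.65), and for Sox4 0.444, 0.441 and 0.395 with the Actg1 guide against 0.537, 0.573 and 0.687 with the GFP guide (-0.53). For Foxo6, Foxp1 and Irx5 the ratios of the groups did not overlap either. At Foxc2, Gata4 and Sox18 the ratios of the groups overlapped.

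**Figure D3:**
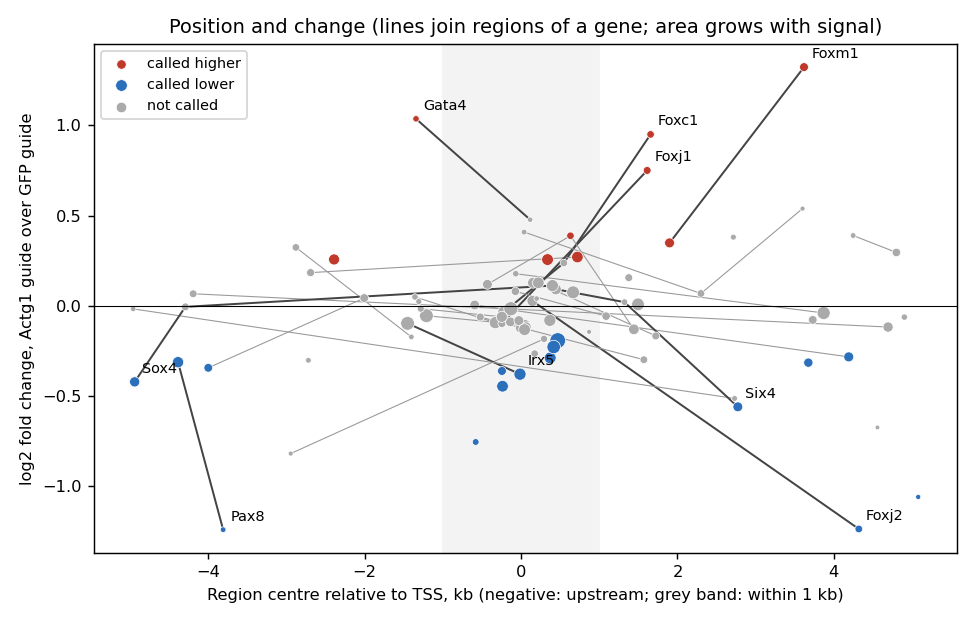
Log2 fold change (Actg1 guide over GFP guide) of 88 of the 89 tested member regions against the position of its centre relative to the TSS, in kb, with point area growing with mean signal and lines joining regions of a gene. Within 1 kb of the TSS all values lie between -0.76 and 0.48, and the 5 changes of at least 2-fold lie farther away. Over all protein-coding genes such changes were called in only 99 of 9954 promoter regions.

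The signal was also summed over all regions of a gene. Of 27 genes with at least 2 regions, the sums of the groups did not overlap in 12 (44.4%, against 51.3% of the 2947 protein-coding genes with at least 2 regions), and with the Actg1 guide 5 of these were higher and 7 lower. Foxm1 summed to 373, 388 and 385 in the Actg1 guide libraries and 238, 206 and 240 in the GFP guide libraries, a log2 difference of 0.73. Gata4 summed to 60, 65 and 65 with the Actg1 guide against 38, 32 and 33 with the GFP guide (0.90), and Pax8 to 293, 269 and 310 with the Actg1 guide against 364, 347 and 392 with the GFP guide (-0.36). Irx5 summed to 1078, 987 and 1043 with the Actg1 guide against 1140, 1221 and 1204 with the GFP guide (-0.20). These 4 had an exact two-sided permutation p of 0.1, the smallest possible. Foxc1, at 585, 525 and 536 with the Actg1 guide against 547, 522 and 484 with the GFP guide, overlapped (log2 difference 0.11, exact permutation p = 0.4).

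Some members are neighbours, and the other regions between them or within 100 kb of the genes were counted after the values were seen. Of all tested regions outside promoters 43.3% were called. The share in the loci given here, 41.7% to 54.5% where a region other than a member was called, lay near or somewhat above that, with no test. Around Irx3 and Irx5 there were 10 such regions, 1 higher and 4 lower. The 4 lower ones lay together, 99.7 to 135 kb from the Irx3 TSS and outside any RefSeq gene, with log2 fold changes of -1.18 to -0.40. The strongest of them (chr8:91925945-91926834) had 184, 215 and 185 in the Actg1 guide libraries and 269, 292 and 258 in the GFP guide libraries (log2 fold change -0.47, adjusted p by limma = 6.56e-05). At 199 kb a weak region (chr8:92001294-92001528) was higher, at 33, 38 and 39 with the Actg1 guide against 10, 6 and 5 with the GFP guide (log2 fold change 2.35, adjusted p by limma = 2.07e-08). Around Irx1 and Irx2 there were 2 other regions, and 0 were called (limma; 0 also at an unadjusted p under 0.05). The Foxf1, Foxc2 and Foxl1 locus held 1 higher and 5 lower among 11 other regions. Around Foxf2 and Foxc1, 13 other regions were tested, 3 higher and 3 lower. One of the higher ones lay near the higher Foxc1 region (chr13:31811721-31812101), at 82, 76 and 71 with the Actg1 guide against 34, 32 and 40 with the GFP guide (log2 fold change 1.05). Around Tbx2 and Tbx4, where 0 members were called (limma), 6 of 14 other regions were lower and 0 higher. Of the 12 other regions tested around Dlx1 and Dlx2, 1 was higher and 4 were lower.

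**Figure D4:**
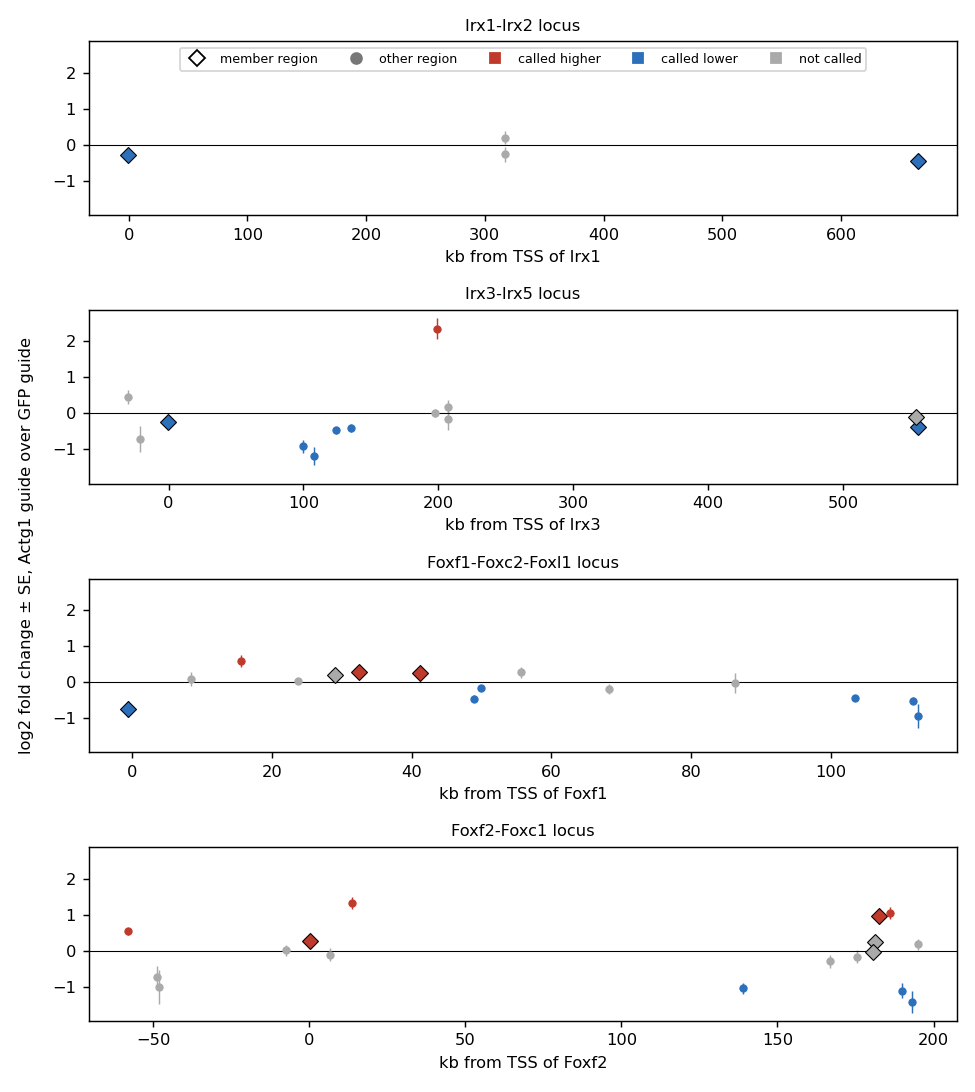
Log2 fold change with its standard error (Actg1 guide over GFP guide) of all tested regions around 4 groups of neighbouring members, against distance in kb from the TSS of the first-named gene; diamonds are members and circles other regions. The Irx members lie below 0 in both loci, and the Fox loci hold members and other regions on both sides of 0.

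Known partners of these factors were taken from a list chosen with earlier results of these data known. Of 24 regions of 13 partner genes, 3 were higher and 9 lower, 50% called against 41.3% of all tested regions and 33.8% of those of protein-coding genes, and the median log2 fold change was -0.17. Of the regions of protein-coding genes 16.3% were called higher and 17.5% lower. The calls came from 7 of the 13 genes, with each region of Ssbp3 among them. The list held LIM-domain partners, the corepressors of the Tle (Groucho) group that sine oculis, Pax and forkhead proteins recruit, Eya partners and Gata cofactors. No region of the Gata cofactors Zfpm1 and Zfpm2 or of Eya1 and Eya3 was called. The largest fall was 1 of 4 regions of Ssbp3, which stabilises complexes of LIM-homeodomain proteins. It lay 2808 bp upstream, with 14, 9 and 7 in the Actg1 guide libraries and 32, 22 and 25 in the GFP guide libraries (log2 fold change -1.34, adjusted p by limma = 0.00147). The largest rise was also at Ssbp3, 341 bp from the TSS, at 80, 54 and 69 with the Actg1 guide against 44, 51 and 39 with the GFP guide (log2 fold change 0.62, adjusted p by limma = 0.0043). At stronger promoters, Tle1 had 685, 657 and 707 with the Actg1 guide against 848, 819 and 902 with the GFP guide (log2 fold change -0.34, adjusted p by limma = 1.25e-06), and Ldb1, the core LIM cofactor, had 361, 370 and 319 with the Actg1 guide against 316, 285 and 264 with the GFP guide (0.31, adjusted p by limma = 0.00168); these 2 were chosen after their values were seen.

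Other transcription factors of mesenchyme and patterning, 41 regions of 29 genes, gave 6 higher and 6 lower, 29.3% called against 33.8% of regions of protein-coding genes, with a median log2 fold change of 0.09. The largest fall was at Prrx2, a limb mesenchyme homeobox gene, whose region averaged 6.33 ± 2.52 (SD, n = 3) with the Actg1 guide and 21.5 ± 3.54 (SD, n = 2) with the GFP guide (log2 fold change -1.67, adjusted p by limma = 0.000998). The largest rise was inside its paralogue Prrx1, at 203, 176 and 191 with the Actg1 guide against 116, 111 and 108 with the GFP guide (log2 fold change 0.77, adjusted p by limma = 1.44e-07). Polycomb group genes, whose products silence many developmental regulators, had 5 higher and 6 lower of 33 regions tested, 33.3% called and so near the same 33.8%, with a median log2 fold change of 0.01. The largest fall there was at Rbbp7, at 286, 296 and 299 with the Actg1 guide against 371, 362 and 378 with the GFP guide (log2 fold change -0.34, adjusted p by limma = 0.000267), and the largest rise inside Pcgf2, at 106, 81 and 110 with the Actg1 guide against 75, 63 and 73 with the GFP guide (0.46, adjusted p by limma = 0.00876). The promoters of Ezh2, Eed and Suz12, the core of Polycomb repressive complex 2, had log2 fold changes of 0.06, 0.11 and 0.01, and 0 of the 3 were called (limma; 0 also at an unadjusted p under 0.05).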

How the data were processed

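ATAC-seq was done on 6 libraries of NIH/3T3 Cas13d knock-in cells. Per the submitters' processing notes, reads were handled on mm10 with DESeq and DESeq2 1.36.0, featureCounts, STAR 2.7.10a, Trimmomatic 0.39 and Picard 3.0.0, and which tool made which step is not said. Not given in the sources used here are the peak caller, any shift for the Tn5 offset and the formula of the normalization. The authors deposited 1 signal per region and library, which from its values is a read count normalized between libraries and rounded to whole numbers, so no count model was used. The deposited table also gives the distance of the region centre to the TSS and the fraction of the region inside the gene body. The signal that 1 read is worth was estimated from the uneven use of small whole numbers, at 0.807 to 1.35.

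GFP guide replicates 1 and 2 gave a chi-square per region of 0.987 (p = 0.978) on estimated reads, the other within-group pairs 1.04 to 1.12. They were averaged and counted as 1 sample, leaving 3 Actg1 guide samples and 2 GFP guide samples. Nothing says that libraries came from separate cultures, so the p-values measure only how far these samples differ, which may be technical spread. Regions that reached a signal of 10 in 3 or more libraries were fitted with limma 3.58.1 in R 4.3.3 (mean-variance trend, log2 of the signal + 1, no covariate), and p-values were adjusted by Benjamini-Hochberg over all 61327 regions tested. Fold changes on that scale understate the change of weak regions. Some weak regions passed the filter only through the group where they were higher, and the filter thereby favoured large changes among them. They include those of Prrx2 and Foxb2, the weaker Pax8 region, the Ssbp3 region with the largest fall and the higher region of the Irx3 and Irx5 locus. For summed signals the test was an exact permutation test, two-sided, and the limma fit was tested on simulated data.

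The members and gene lists were chosen with earlier results of these data known. Named were called regions without overlap between groups, the strongest region of each family, strong called regions and, for each list, the called region of largest change in each direction. Other uncalled regions and Foxb2 were chosen after their values were seen. Promoter windows were matched by symbol for 37 of 59 genes. Alternatives changed the pseudocount, the filter, the scaling, the treatment of the 2 alike libraries, the replicate block, the promoter distance and the libraries used. The counts include 1 called member region that is not reported here by name or in the figures.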

Additional observations from a re-analysis of the deposited data

How the results depend on the processing

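The counts of members called (9 higher, 17 lower) were the same with a pseudocount of 0.5 or 5, without a filter, with equal total signal and with 6 separate libraries, and were 8 and 17 after cyclic loess scaling and 9 and 15 with a signal of at least 30 in 3 libraries, which left 71 members. The same-numbered libraries of the groups deviated together at correlations of 0.0138 to 0.0252, too weak to pair them, although each correlated best with its own number. A fit with the replicate number as a block and 6 separate libraries called 28725 of all regions, against 25323, and the same 26 members. It differed in both respects from the fit that gave 25323, so the difference is not that of the block alone. The calls depended most on GFP guide replicate 3, without which the GFP guide had 1 sample, assumed to vary like the others. Leaving out 1 library at a time gave 12793 to 24706 of all regions, 7 to 27 members (4 to 10 higher, 3 to 17 lower), and 2 to 11 member promoters. By family it gave 5 to 14 Fox, 0 to 4 Sox, 0 to 2 sine oculis (Six4 and its relatives), 0 to 2 Pax, 1 to 4 Irx and 0 to 1 Dlx regions. The stricter filter also left 1 Pax region called. Genes whose summed signals did not overlap numbered 12 to 18, against 12 of 27, a count that leaving out a library cannot lower. The log2 fold change of the Sox4 promoter lay between -0.0013, without GFP guide replicate 3, and 0.155, against 0.11 with all libraries; the cause was not tested. Promoters within 2 kb of the TSS gave 15 calls of 58, against 11 of 41 within 1 kb. With only 2 GFP guide samples and weak regions of 10 to 30 signal units, changes in weak members may go undetected.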
